A study of Mus musculus with 6 samples.

Results

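Expression of 36 genes of glycolysis and of the response to low oxygen was compared between J110 and SSM3 cells, both mouse mammary tumour lines. The genes form a list of named glycolytic enzymes, glucose and lactate transporters, regulators of glycolytic flux, oxygen-sensing genes and hypoxia-induced genes. All 36 were found among the 52636 genes of the deposited count table, and 32 passed the filter on low counts and were among the 12284 genes tested. The mice behind J110 carried an AIB1 transgene, with the long terminal repeat of MMTV as a promoter that is active in mammary epithelium, and SSM3 cells came from mammary tumours of genetically modified 129SvEv mice. Each line gave 3 biological replicates, with no treatment described, harvested before confluence and sequenced from the 3′ end of polyadenylated RNA. Both media contained insulin and hydrocortisone. SSM3 cells had more serum and more CO2 than J110 cells, with transferrin, β-mercaptoethanol and extra glutamine, so culture condition and cell line cannot be told apart in any difference given here. No culture in reduced oxygen is described for either line in the sources used here.

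Glycolysis converts glucose to pyruvate through a fixed series of enzymes, most of which exist as several isozymes encoded by different genes, and lactate dehydrogenase then reduces pyruvate to lactate for export. When oxygen falls, the prolyl hydroxylases that mark HIF-α subunits for destruction slow down, and HIF with its partner ARNT binds a short core motif in the promoters and enhancers of its targets, which include many glycolytic genes, the vascular growth factor VEGF-A and the mitophagy receptor BNIP3. Tumour cells often keep glycolysis high when oxygen is present.

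Total counts were between 5209740 and 5416305 in J110 and between 4200785 and 4792941 in SSM3. Expression is given as CPM, the counts of a gene relative to the total of its library after TMM scaling. Each transcript is read from its 3′ end, so CPM was not divided by gene length. At these depths a count of 3, the floor used here, corresponds to 0.578 to 0.668 CPM, and with no molecular identifiers described this limit covers counting error only. Ncoa3, which encodes AIB1, averaged 21.2 ± 0.166 CPM (SD, n = 3) in J110 and 39.9 ± 2.65 CPM in SSM3, and whether reads of the AIB1 transgene would be counted on the mouse gene is not given in the sources used here. Every direction rests on the labels. Of the markers of the labelled cell type, the 5 epithelial genes summed to between 2677 and 2766 CPM in J110 and between 11878 and 13073 CPM in SSM3, with Epcam at a mean of 0.681 CPM, Cdh1 at 4.02 and Krt19 at 18.6 in J110 beside Krt8 at 1275 and Krt18 at 1430. In SSM3 Epcam averaged 507 CPM, Cdh1 1374, Krt19 7412, Krt8 2270 and Krt18 970, so Krt18 was lower in SSM3 while the other markers were higher. The part of this difference in the results was not tested. Genes of the opposite line had more widespread low counts in J110 replicate 3 and SSM3 replicate 2. Of 105 genes with a mean of at least 50 CPM in SSM3 and at most 1 CPM in J110, 84 had a count in J110 replicate 3 against 46 and 43 in the other J110 libraries. Of 128 such genes of J110, 112 had a count in SSM3 replicate 2 against 65 and 51 in the other SSM3 libraries. Results are given without these libraries where a call changed. A ribosomal RNA locus held 15.1% to 17.2% of counts in J110 and 0.779% to 1.27% in SSM3, and leaving it out changed no call among the 36 genes.

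The list did not move one way. Of the 32 genes tested, 13 were higher in SSM3 (40.6%) and 18 were lower (56.2%), where 38.6% of all genes tested were higher and 39.2% lower at an adjusted p below 0.05. Tpi1 was the one tested gene that was not called, so 31 of 32 were called (96.9%) against a background of 77.9%. In those 31 genes the 3 libraries of one line also lay apart from the 3 of the other, as they did for 79.6% of all genes tested, with 13 genes apart and higher in SSM3 (39.4% of all genes) and 18 apart and lower (40.3%). The directions differed in size. A difference of at least 2-fold was reached by 16 of the genes lower in SSM3 (50% of those tested, against 22.5% of all genes) and by 3 of the genes higher in SSM3 (9.38%, against 21.2%). The median log2 fold change, SSM3 against J110, was -0.96 over the 32 genes and -0.01 over all genes tested, with quartiles of -1.59 and 0.52 over the list and -0.87 and 0.81 over all genes. Without J110 replicate 3 and SSM3 replicate 2, 13 genes were higher and 18 lower, 2 and 16 of them by at least 2-fold. Unless another fit is named beside it, an adjusted p of a gene is from edgeR's quasi-likelihood test with Benjamini-Hochberg adjustment over the 12284 genes. Of the 32 genes, 31 passed the filter in both lines, of which 13 were higher and 17 lower (3 and 15 by at least 2-fold). Of all 9664 genes that passed in both lines, 38.2% were higher and 36.8% lower (16.3% and 15.8% by at least 2-fold). Slc16a3 passed through J110 alone, the line where it is high, and its call is no support. Setting Slc16a3 at the end of its counting interval nearest to no difference left the median at -0.96. Slc2a3, Eno2, Ldhb and Ca9 were not tested.

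**Figure D1:**
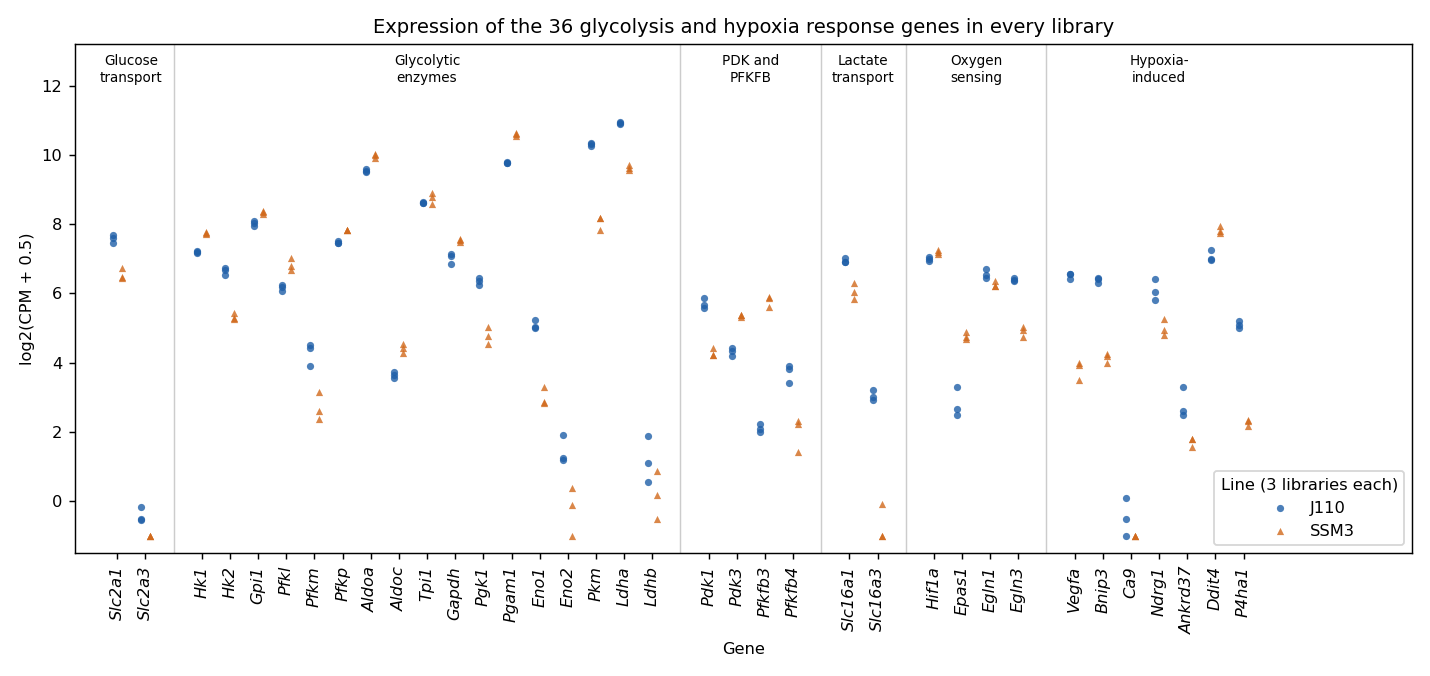
Expression of the 36 genes, as log2(CPM + 0.5), in each of the 3 J110 libraries (circles) and 3 SSM3 libraries (triangles), with genes in order of their role. Ldha and Pkm stand at 1928 and 1255 CPM on average in J110 and clearly lower in SSM3, Pfkfb3 stands apart in the other direction, and Slc2a3 and Ca9 lie at the bottom in both lines.

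Glucose enters these cells through facilitative transporters. Slc2a1 (ENSMUSG00000028645, chromosome 4 from 119108711 to 119137983 in mm10), which encodes GLUT1, the basal transporter of most dividing cells, was counted at 193, 207 and 176 CPM in J110 and 106, 86.6 and 88.3 CPM in SSM3. The lines did not overlap, and the log2 fold change was -1.04 (SE 0.09, adjusted p = 3.47e-08). Slc2a3, which encodes the high-affinity transporter GLUT3, had 1, 2 and 1 counts in J110 and 0 in every SSM3 library, at or under the floor in both lines, so no difference was detectable at this depth. Slc2a1 was therefore the one glucose transporter of the list with a measurable level.

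Of the 17 glycolytic enzyme genes, 15 were tested, and 8 were higher in SSM3, 6 were lower and Tpi1 was not called, where 38.6% of all genes tested were higher and 39.2% lower. The 8 that were higher differed by 1.26-fold to 1.75-fold, and none reached 2-fold. Each of the 6 that were lower differed by at least 2-fold, against 22.5% of all genes. Those lower were Hk2, Pfkm, Pgk1, Eno1, Pkm and Ldha, and those higher were Hk1, Gpi1, Pfkl, Pfkp, Aldoa, Aldoc, Gapdh and Pgam1.

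At the first step, which traps glucose in the cell as glucose 6-phosphate, the isozymes moved in opposite directions. Hk1, the hexokinase of most tissues, was at 144, 149 and 146 CPM in J110 and 209, 213 and 219 CPM in SSM3, a log2 fold change of 0.55 (SE 0.07, adjusted p = 2.88e-06). Hk2, the inducible hexokinase of muscle and of many tumours, was at 101, 92.6 and 107 CPM in J110 and 43.2, 37.6 and 38.6 CPM in SSM3, a log2 fold change of -1.33 (SE 0.10, adjusted p = 1.88e-09). For both genes every library of one line lay beyond every library of the other. The sum of the pair nevertheless overlapped, at 246 ± 5.70 CPM (SD, n = 3) in J110 against 253 ± 3.94 CPM in SSM3.

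Gpi1, the isomerase that makes fructose 6-phosphate, was at 259 ± 11.7 CPM in J110 against 326 ± 8.75 CPM in SSM3, and its log2 fold change was 0.33 (SE 0.07, adjusted p = 3.68e-04). Phosphofructokinase, the main control point of the pathway, is encoded by 3 genes named for liver, muscle and platelet, which were all measured. Pfkl was at 72.9, 75.8 and 66.4 CPM in J110 and 103, 111 and 129.7 CPM in SSM3, a log2 fold change of 0.68 (SE 0.10, adjusted p = 9.52e-06). Pfkp was at 174, 181 and 173 CPM in J110 and 229, 229 and 228 CPM in SSM3, a log2 fold change of 0.38 (SE 0.07, adjusted p = 1.21e-04). Pfkm went the other way, from 14.5, 22.2 and 21.1 CPM in J110 to 8.46, 4.67 and 5.57 CPM in SSM3, a log2 fold change of -1.63 (SE 0.23, adjusted p = 7.79e-06). The lines were apart for each of the 3 genes. Pfkm shares exon sequence with Senp1 on the opposite strand, which had 199% as many counts, and Pfkp with Pitrm1, which had 44.4% as many, so both values are uncertain because the strand setting of the counting is not given in the sources used here.

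Aldolase splits the 6-carbon sugar, and its 2 listed genes moved together. Aldoa was at 734, 721 and 775 CPM in J110 and 1037, 969 and 1027 CPM in SSM3 (log2 fold change 0.44, SE 0.07, adjusted p = 1.14e-05). Aldoc, an isozyme best known from brain, was at 11.2, 12.1 and 12.7 CPM in J110 and 20.9, 19.1 and 22.7 CPM in SSM3 (log2 fold change 0.80, SE 0.15, adjusted p = 1.51e-04). Tpi1, which interconverts the triose phosphates, was at 392, 388 and 397 CPM in J110 and 479, 382 and 437 CPM in SSM3. The lowest SSM3 library lay below all J110 libraries, and the log2 fold change was 0.14 (SE 0.08, adjusted p = 0.114). This library, SSM3 replicate 2, decided the call, since without it the log2 fold change of Tpi1 was 0.23 (adjusted p = 0.0137), and with library size only, without TMM, it was 0.32 (adjusted p = 0.00173). Without both J110 replicate 3 and SSM3 replicate 2 the adjusted p of Tpi1 was 0.0278.

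The middle steps are encoded by Gapdh, Pgk1 and Pgam1, and Pgk1 stood against its neighbours. Gapdh was at 140.2, 114 and 134 CPM in J110 and 180.4, 189 and 186 CPM in SSM3, a log2 fold change of 0.52 (SE 0.09, adjusted p = 3.74e-05). Pgk1, which makes the first ATP of the pathway and is a known HIF target, was at 75.2, 87.4 and 82.2 CPM in J110 and 26.9, 22.7 and 32.4 CPM in SSM3, a log2 fold change of -1.57 (SE 0.12, adjusted p = 3.57e-09). Pgam1, the phosphoglycerate mutase, was at 895, 870.1 and 868 CPM in J110 and 1492, 1551 and 1573 CPM in SSM3, a log2 fold change of 0.81 (SE 0.06, adjusted p = 6.22e-09). No library of one line reached the other line in any of these genes. The 3′ end of Gapdh was near-identical to that of 63 other counted genes, 60 of them pseudogenes, and those of Pgk1 and Eno1 to that of 2 each. How reads with several matches were counted is not given in the sources used here, so these levels are uncertain. Adding the counts of the near-identical genes, which were 0 in every library for Pgk1, changed no call. It could not bring back reads that the counting may have left out, so it does not settle these levels.

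Genes of the last steps of the pathway were lower in SSM3. Eno1 (ENSMUSG00000063524), the ubiquitous enolase, was at 37.4, 31.4 and 31.9 CPM in J110 and 9.35, 6.58 and 6.77 CPM in SSM3, a log2 fold change of -2.15 (SE 0.17, adjusted p = 5.46e-09). Pkm (ENSMUSG00000032294, chromosome 9 from 59656368 to 59679375), the pyruvate kinase of most tissues other than liver and red cells, was at 1288, 1264 and 1214 CPM in J110 and 288, 227 and 291 CPM in SSM3, a log2 fold change of -2.22 (SE 0.09, adjusted p = 8.29e-13). Its alternative forms PKM1 and PKM2 share a 3′ end and were counted as one gene. Ldha (ENSMUSG00000063229, chromosome 7 from 46841475 to 46855627), the lactate dehydrogenase subunit that favours lactate production, was at 1889, 1969 and 1927 CPM in J110 and 842, 788 and 756 CPM in SSM3, a log2 fold change of -1.28 (SE 0.07, adjusted p = 3.88e-11). In each of the 3 genes the highest SSM3 library was below the lowest J110 library. The other listed genes of these steps, Eno2 and Ldhb, were close to the floor. Eno2 had 17, 9 and 9 counts in J110 and 0, 2 and 4 in SSM3, and Ldhb had 5, 16 and 8 counts in J110 and 6, 3 and 1 in SSM3, too few to be tested.

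Summed over the list, the enzyme genes were closer between the lines than many were one by one. The 17 enzyme genes together were at 6230.0 ± 14.3 CPM (SD, n = 3) in J110 against 5217 ± 129 CPM in SSM3, a J110 level 1.19 times that of SSM3. Within that sum, Ldha and Pkm held 51.1% ± 0.676 of the counts in J110 and 20.4% ± 0.824 in SSM3. Pgam1 and Aldoa held 26% ± 0.478 in J110 and 48.9% ± 1.03 in SSM3. The other 13 enzymes took 22.9% ± 0.264 in J110 and 30.7% ± 0.431 in SSM3. These are shares of 3′ counts, and they do not give the share of each enzyme as protein. The sum includes Gapdh, Pgk1, Eno1, Pfkm and Pfkp, whose levels are uncertain as given above. It leaves out Eno3, an enolase gene outside the list, which averaged 245 CPM in J110 and 3.03 CPM in SSM3.

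**Figure D2:**
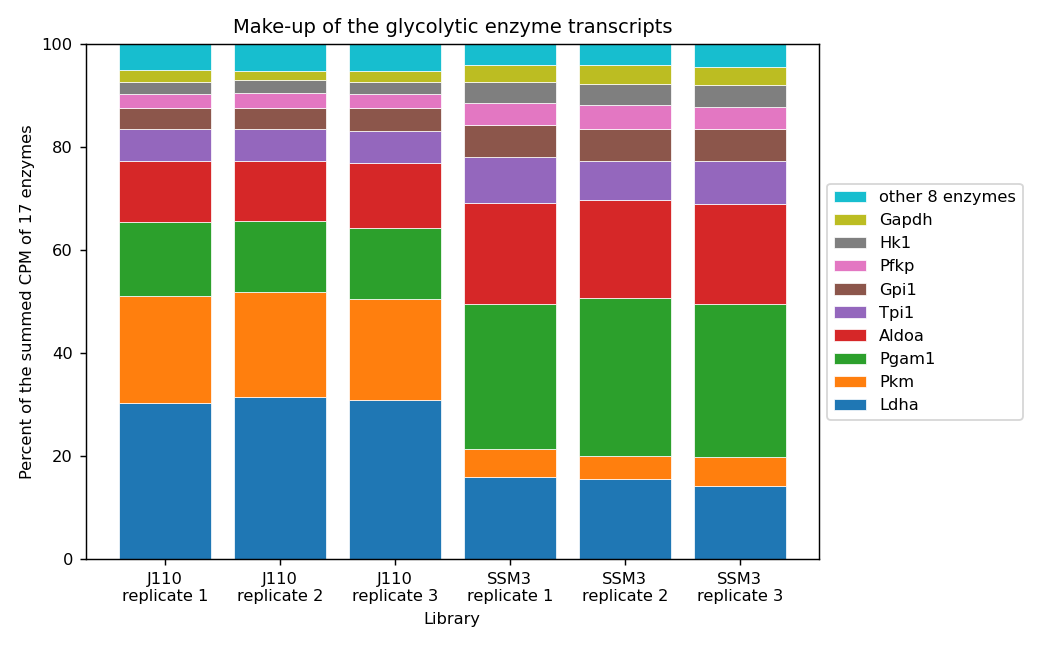
Share of the summed CPM of the 17 glycolytic enzyme genes held by 9 of them and by the other 8 together, in percent, as stacked bars for each of the 6 libraries. Ldha goes from 30.9% on average in J110 to 15.2% in SSM3 and Pkm from 20.2% to 5.15%, while Pgam1 goes from 14.1% to 29.5% and Aldoa from 11.9% to 19.4%, with little spread between libraries of a line.

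Flux through the pathway also depends on regulatory enzymes outside it. PFKFB enzymes make or remove fructose 2,6-bisphosphate, the strongest activator of phosphofructokinase, and pyruvate dehydrogenase kinases keep pyruvate out of the mitochondrial cycle. Pfkfb3 (ENSMUSG00000026773, chromosome 2 from 11471433 to 11554077), the isozyme with the highest kinase activity, was at 3.47, 4.15 and 3.76 CPM in J110 and 48.5, 58.4 and 58.7 CPM in SSM3. Its log2 fold change of 3.86 (SE 0.16, adjusted p = 2.17e-12), a 14.5-fold difference, was the largest among the listed genes higher in SSM3. Pfkfb4, another hypoxia-inducible isozyme, was at 14.5, 10.1 and 13.6 CPM in J110 and 4.23, 4.46 and 2.19 CPM in SSM3, a log2 fold change of -1.81 (SE 0.27, adjusted p = 1.07e-05). The lines lay apart for both isozymes, in opposite directions, and their sum was 16.5 ± 1.98 CPM in J110 against 58.8 ± 5.34 CPM in SSM3.

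The pyruvate dehydrogenase kinases were split in the same manner. Pdk1, a HIF target, was at 50.7, 58.1 and 47.2 CPM in J110 and 18.0, 18.3 and 20.9 CPM in SSM3, a log2 fold change of -1.44 (SE 0.13, adjusted p = 1.93e-08). Pdk3 was at 20.8, 19.6 and 17.7 CPM in J110 and 39.2, 41.0 and 41.2 CPM in SSM3, a log2 fold change of 1.06 (SE 0.12, adjusted p = 6.43e-07). J110 thus had more Pdk1 than Pdk3 counts in every library, and SSM3 more Pdk3 than Pdk1 counts.

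Lactate leaves the cell through monocarboxylate transporters, and both listed genes had fewer counts in SSM3. Slc16a1, which encodes the widespread transporter MCT1, was at 118, 129 and 119 CPM in J110 and 77.7, 65.6 and 56.9 CPM in SSM3, a log2 fold change of -0.87 (SE 0.10, adjusted p = 9.44e-07). Slc16a3 (ENSMUSG00000025161), which encodes MCT4, the HIF-induced exporter of strongly glycolytic cells, had 37, 44 and 36 counts in J110 and 2, 0 and 0 in SSM3. The ratio of its pooled counts, each against the scaled library sizes, was 55.3 with an exact 95% interval from 15.0 to 462 that covers counting error only. Since Slc16a3 passed the filter through J110 alone, no p is given.

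**Figure D3:**
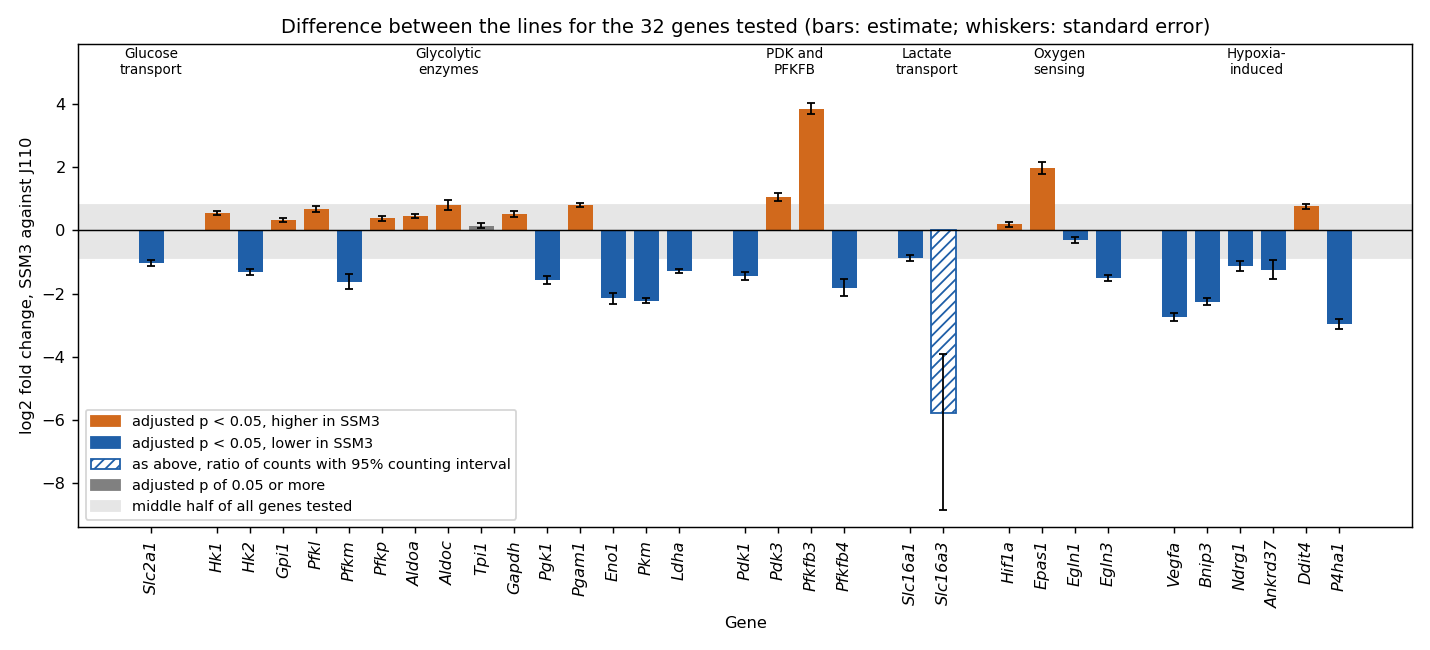
Log2 fold change of the 32 genes tested, SSM3 against J110, in order of role, with whiskers for the standard error (for Slc16a3, the ratio of pooled counts with its 95% counting interval) and a grey band over the middle of the distribution of all genes tested, from -0.87 to 0.81. Bars above 0 are short except for Pdk3, Pfkfb3 and Epas1, and 16 bars below 0 reach at least 2-fold.

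The genes of oxygen sensing did not move as a block either. Hif1a, the broadly expressed HIF-α subunit, was at 128, 133 and 121 CPM in J110 and 141, 145 and 153 CPM in SSM3, a log2 fold change of 0.20 (SE 0.08, adjusted p = 0.0286). With single libraries left out the log2 fold change of Hif1a stayed between 0.16 and 0.23, but its call was lost in 3 of the 6 fits, where the adjusted p was 0.0779 without J110 replicate 1, 0.111 without J110 replicate 3 and 0.0917 without SSM3 replicate 3, and 0.117 without both J110 replicate 3 and SSM3 replicate 2. Upper quartile scaling gave it an adjusted p of 0.0653 and DESeq2 one of 0.0526. Epas1, which encodes HIF-2α, a subunit first known from endothelium, was at 9.25, 5.14 and 5.84 CPM in J110 and 28.9, 25.3 and 26.3 CPM in SSM3, a log2 fold change of 1.98 (SE 0.19, adjusted p = 8.27e-08). All SSM3 libraries were well above all J110 libraries for Epas1.

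The prolyl hydroxylases were both lower in SSM3, by unequal amounts. Egln1, which encodes PHD2, the main oxygen sensor, was at 92.0, 103 and 87.2 CPM in J110 and 81.5, 73.9 and 73.8 CPM in SSM3, a log2 fold change of -0.30 (SE 0.09, adjusted p = 0.00654). With library size only, without TMM, the Egln1 difference was -0.13 (adjusted p = 0.227), while the median of all genes moved from -0.01 to 0.16. Egln3, which encodes PHD3 and is itself induced by HIF, was at 82.7, 85.8 and 81.4 CPM in J110 and 32.1, 30.2 and 26.3 CPM in SSM3, a log2 fold change of -1.5 (SE 0.10, adjusted p = 6.16e-10). The Egln3 libraries of the lines were far apart, and those of Egln1 lay close together without overlap.

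Of the 7 hypoxia-induced genes that are not enzymes of the pathway, 6 were tested, and 5 were lower in SSM3 while Ddit4 was higher, where 39.2% of all genes tested were lower and 38.6% higher. HIF recognises a core of the letters ACGTG or GCGTG, so windows of 300 bases around the starts of the genes (250 before and 50 after, RefSeq, GRCm38.p6) were searched for both on both strands. Promoters are shown for Bnip3, P4ha1 and Ldha, HIF targets that were lower in SSM3, and for Ddit4 and Pfkfb3, which are also induced by hypoxia and were higher, so that genes of both directions can be compared. Each is printed 5′ to 3′ on the strand of its gene, with every match in capitals (CACGT and CACGC are the same motifs read from the other strand). The windows are chr7:138909457-138909756 on the minus strand for Bnip3, chr10:59323046-59323345 on the plus strand for P4ha1, chr7:46845554-46845853 on the plus strand for Ldha, chr10:59951721-59952020 on the minus strand for Ddit4 and chr2:11502041-11502340 on the minus strand for Pfkfb3. For Ldha and Pfkfb3, which have 2 windows each, the one with more matches is shown.
Bnip3: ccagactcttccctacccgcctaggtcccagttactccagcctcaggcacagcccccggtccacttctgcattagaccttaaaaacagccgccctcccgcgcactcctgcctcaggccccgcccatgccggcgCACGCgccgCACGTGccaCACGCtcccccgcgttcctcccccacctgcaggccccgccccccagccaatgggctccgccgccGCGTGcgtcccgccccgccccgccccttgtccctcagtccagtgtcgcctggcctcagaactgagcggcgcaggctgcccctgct
P4ha1: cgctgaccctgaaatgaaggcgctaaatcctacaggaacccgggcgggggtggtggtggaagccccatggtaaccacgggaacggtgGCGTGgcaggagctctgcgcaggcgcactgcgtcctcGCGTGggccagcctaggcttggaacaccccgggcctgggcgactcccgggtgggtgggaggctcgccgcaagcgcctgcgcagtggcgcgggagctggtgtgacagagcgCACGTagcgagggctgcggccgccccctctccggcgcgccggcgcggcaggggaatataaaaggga
Ldha: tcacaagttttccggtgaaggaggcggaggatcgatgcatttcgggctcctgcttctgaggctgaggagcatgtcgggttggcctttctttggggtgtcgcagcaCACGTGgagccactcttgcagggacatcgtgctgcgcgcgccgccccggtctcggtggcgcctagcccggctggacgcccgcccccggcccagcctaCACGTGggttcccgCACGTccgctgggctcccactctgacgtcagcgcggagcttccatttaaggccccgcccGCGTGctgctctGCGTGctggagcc
Ddit4: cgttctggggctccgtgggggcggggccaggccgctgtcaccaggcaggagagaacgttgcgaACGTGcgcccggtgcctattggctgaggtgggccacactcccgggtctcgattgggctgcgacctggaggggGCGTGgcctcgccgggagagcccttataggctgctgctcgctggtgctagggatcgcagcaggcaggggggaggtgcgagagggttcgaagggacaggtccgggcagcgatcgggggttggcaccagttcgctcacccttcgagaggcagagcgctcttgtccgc
Pfkfb3: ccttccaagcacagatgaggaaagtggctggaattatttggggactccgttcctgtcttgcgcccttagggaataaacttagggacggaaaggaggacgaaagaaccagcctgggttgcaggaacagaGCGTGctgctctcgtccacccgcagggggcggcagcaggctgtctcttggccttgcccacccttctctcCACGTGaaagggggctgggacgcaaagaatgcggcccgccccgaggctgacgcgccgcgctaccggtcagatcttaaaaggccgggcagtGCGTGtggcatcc
The windows hold 5 matches for Bnip3, 3 for P4ha1, 7 for Ldha, 2 for Ddit4 and 4 for Pfkfb3, where the overlapping matches in CACGTG count once on each strand. A match describes the letters of the window and shows no binding.

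Genes of both directions carried the core. Of the 36 genes, 33 had at least 1 window, and 30 of these (90.9%) had a match. All 17 genes with a window that were lower in SSM3 had one, and so did 11 of the 12 that were higher. Tpi1, which was not called, had none. Among the 9105 genes tested that had a window 69.0% had a match, and among all 27025 genes with a window 46.7%. A gene with several windows was counted if any of them had a match. By window, 38 of the 47 windows of listed genes had a match (80.9%), against 43.8% of 32851 windows of all genes.

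P4ha1 and Vegfa had the largest differences among the hypoxia-induced genes. P4ha1 (ENSMUSG00000019916, chromosome 10 from 59323296 to 59373304), a prolyl hydroxylase subunit that modifies collagen, was at 31.8, 33.8 and 36.7 CPM in J110 and 4.01, 4.46 and 4.58 CPM in SSM3, a log2 fold change of -2.96 (SE 0.17, adjusted p = 9.41e-11). Vegfa (ENSMUSG00000023951, chromosome 17 from 46016993 to 46032369), the vascular endothelial growth factor, was at 94.5, 93.6 and 84.5 CPM in J110 and 14.7, 15.3 and 10.7 CPM in SSM3, a log2 fold change of -2.75 (SE 0.12, adjusted p = 4.51e-12). P4ha1 was thus 7.79-fold and Vegfa 6.71-fold lower in SSM3, with no overlap between the lines.

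Bnip3, Ndrg1 and Ankrd37 were lower as well. Bnip3, which directs mitochondria to autophagy, was at 84.6, 86.4 and 77.6 CPM in J110 and 15.4, 18.7 and 17.9 CPM in SSM3, a log2 fold change of -2.26 (SE 0.11, adjusted p = 1.14e-11). Gm45507, on the opposite strand, shares exon sequence with Bnip3 and had 90.6% as many counts, so reads from these genes may not be told apart. Ndrg1, a stress-induced gene of differentiation, was at 64.8, 85.6 and 56.1 CPM in J110 and 37.6, 30.2 and 27.3 CPM in SSM3, a log2 fold change of -1.12 (SE 0.15, adjusted p = 3.56e-06). Its J110 libraries spread widely but stayed above SSM3. Ankrd37, a small HIF target, was at 9.25, 5.14 and 5.63 CPM in J110 and 2.45, 2.97 and 2.98 CPM in SSM3, a log2 fold change of -1.25 (SE 0.30, adjusted p = 0.00137). It is the least certain of the group, with 26 to 48 counts in J110 and 11 to 15 in SSM3, and Ufsp2, which shares its exon sequence on the opposite strand, had 1167% as many counts.

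Ddit4 (ENSMUSG00000020108, chromosome 10 from 59949669 to 59951834), which encodes REDD1, an inhibitor of mTORC1 that responds to hypoxia and also to glucocorticoid and other stresses, was the exception. It was at 123, 152 and 128 CPM in J110 and 246, 223 and 213 CPM in SSM3, a log2 fold change of 0.76 (SE 0.09, adjusted p = 9.30e-07), and every SSM3 library was above every J110 library. Both media contained hydrocortisone, and its part in this result was not tested. With Ddit4 included, the group summed to 418 ± 34.8 CPM in J110 against 297 ± 21.8 CPM in SSM3. Ca9, the carbonic anhydrase often used as a hypoxia marker, had 3, 1 and 0 counts in J110 and 0 in every SSM3 library, at or under the floor in both.

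Ratios of related genes within a library depend little on how libraries are scaled, and 12 pairs were listed. Those with GLUT3 and MCT4 were left out because Slc2a3 in both lines and Slc16a3 in SSM3 were at the floor, which left 10 pairs. In 8 of the 10 the libraries of the lines lay apart (p = 0.1 in a two-sided exact test over the permutations of the libraries, and 0.125 after Benjamini-Hochberg adjustment over the 10 pairs). Single genes lay apart for 79.6% of all genes tested, and the share among pairs of genes at large was not computed. With 3 libraries in each line 0.1 is the lowest p possible, so no pair could pass a threshold of 0.05. The log2 ratio of Pfkfb3 to Pfkfb4 turned from -1.63 ± 0.38 (SD, n = 3) in J110 to 3.83 ± 0.59 in SSM3, and that of Pdk1 to Pdk3 from 1.40 ± 0.14 to -1.07 ± 0.10. Hk1 over Hk2 went from 0.55 ± 0.12 to 2.41 ± 0.13 without changing which isozyme had more counts. The balance of the HIF-α subunits, Hif1a over Epas1, was 4.20 ± 0.44 in J110 and 2.43 ± 0.14 in SSM3. That of the listed prolyl hydroxylases, Egln1 over Egln3, was 0.17 ± 0.08 in J110 and 1.36 ± 0.10 in SSM3. It leaves out Egln2, which was higher in SSM3. The ratios of Eno1 to Eno2 and of Ldha to Ldhb overlapped between the lines (exact permutation p = 0.6 and 0.7), with the minor gene near the floor.

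**Figure D4:**
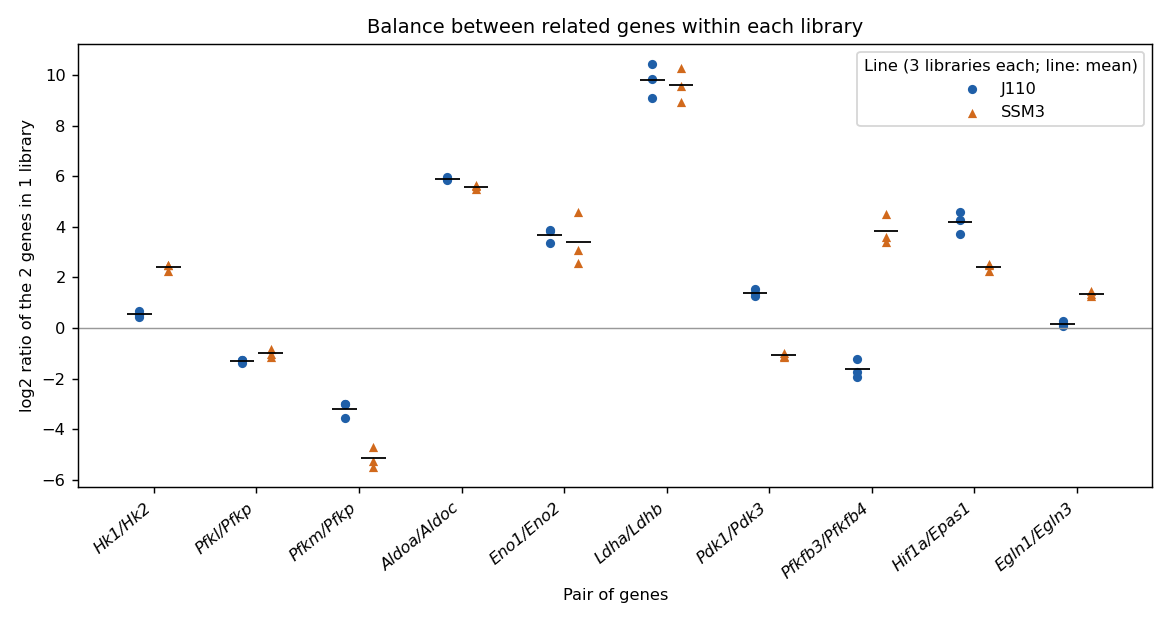
Log2 ratio of the CPM of 2 related genes within each library, with a prior count of 2, for the 10 pairs used, with bars at the mean of each line. The ratios Pdk1/Pdk3 and Pfkfb3/Pfkfb4 lie on opposite sides of 0 in the 2 lines, and the ratios with Eno2 and Ldhb overlap.

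A further 93 genes of the same pathways were listed, and 64 were tested, of which 26 were higher in SSM3 (40.6%), 23 were lower (35.9%) and 15 were not called, shares near the 38.6% and 39.2% of all genes. With library size only, without TMM, 31 of the 64 were higher and 16 lower. Of the 64, 55 passed the filter in both lines, with 22 higher and 18 lower, and the counts of single lists that follow are over these genes. They are small counts, to be read against 38.2% higher and 36.8% lower among all genes that passed in both lines. Among other glycolytic isozymes, 2 of 5 tested genes were lower and none was called higher. Eno3, the muscle enolase, was at 245 ± 4.33 CPM (SD, n = 3) in J110 against 3.03 ± 0.214 CPM in SSM3, a log2 fold change of -6.33 (SE 0.12, adjusted p = 1.89e-16). The counts of Eno1, Eno2 and Eno3 together were then at 281 ± 3.02 CPM in J110 against 11 ± 1.27 CPM in SSM3. Both this total and its division between the genes are uncertain, because the level of Eno1 is. The 3′ end of Eno1 is near-identical to that of 2 other counted genes. The 2 other glucose transporters tested did not pass the test.

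In gluconeogenesis and glycogen metabolism 4 of 5 genes were higher and 1 was lower. Pcx, the pyruvate carboxylase that refills the mitochondrial cycle, was at 1.86 ± 0.465 CPM in J110 against 84.5 ± 4.86 CPM in SSM3 and passed the filter through SSM3 alone, so it is not counted here and no test is given for it. The gene that was lower was Gbe1, the glycogen branching enzyme (log2 fold change -0.49). In the pentose phosphate pathway 3 of 7 were higher and 2 were lower. G6pdx, whose enzyme opens that pathway and makes NADPH, was at 31.3 ± 2.97 CPM in J110 against 203 ± 12.7 CPM in SSM3 (log2 fold change 2.70, SE 0.10, adjusted p = 2.27e-13), and Rpia, the ribose 5-phosphate isomerase, was lower (log2 fold change -0.44). G6pdx shares exon sequence with Ikbkg on the opposite strand, so its level is uncertain. Ikbkg had 300, 287 and 262 counts in J110 and 133, 170 and 173 in SSM3. G6pdx itself had 180, 147 and 145 counts in J110 and 857, 954 and 1087 in SSM3.

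Genes that govern entry of pyruvate into mitochondria were mixed. Of the other flux regulators 2 of 4 were higher and 1 lower, where the shares of all genes that passed in both lines were 38.2% and 36.8%. Pdk2, at 1.66 ± 0.858 CPM in J110 against 16.4 ± 1.07 CPM in SSM3, passed the filter through SSM3 alone and Pfkfb2 through J110 alone, so neither is counted. Pdp1, a phosphatase that opposes the kinases, was lower at a log2 fold change of -0.46. Of 9 genes of pyruvate dehydrogenase and of pyruvate and lactate transport 3 were higher and 2 lower. Pdhx, a binding subunit of the complex, had a log2 fold change of 0.61 and Dld, its dihydrolipoamide dehydrogenase, one of -0.96.

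Other components of the HIF pathway were higher in 4 of 8 genes and lower in 2, beside 38.2% and 36.8% of all genes that passed in both lines. Hif1an, which encodes the asparagine hydroxylase FIH, averaged 12.7 CPM in J110 and 46.8 CPM in SSM3 (log2 fold change 1.89, SE 0.14, adjusted p = 2.45e-09), and Cul2, the scaffold of the ligase that marks HIF-α for destruction, was lower (log2 fold change -1.19, SE 0.14, adjusted p = 1.16e-06). Of 15 other hypoxia-induced genes that passed the filter in both lines, 6 were higher and 8 were lower. Stc2, a secreted stanniocalcin, rose from 2.54 ± 0.516 CPM in J110 to 69.2 ± 4.78 CPM in SSM3 (log2 fold change 4.76, SE 0.17, adjusted p = 1.49e-13).

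**Figure D5:**
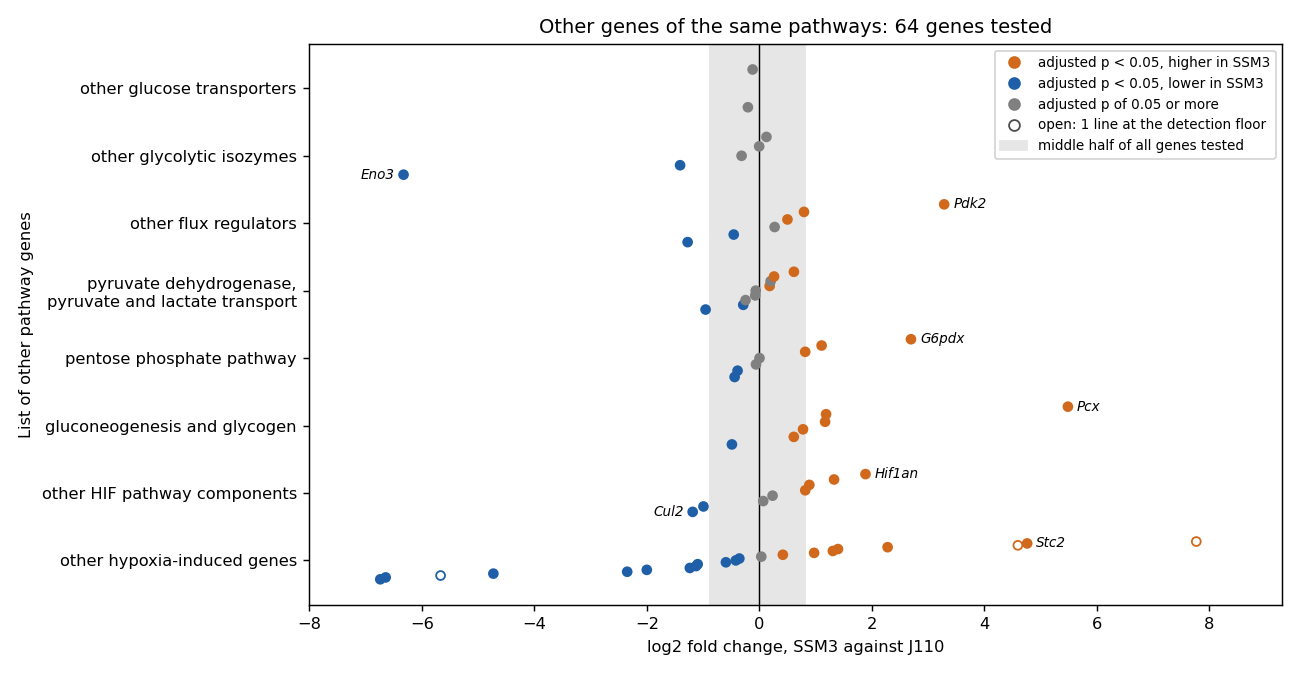
Log2 fold change, SSM3 against J110, of the 64 tested genes in the 8 lists of other pathway genes, coloured by call, with labels on genes named in the text that differ by more than 1 on this scale and open points for fitted values of genes at the floor in 1 line. Points lie on both sides of 0 in most lists, and Eno3 lies furthest below 0 among the labelled genes.

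Several members are also expressed by other cells, so lists of markers were read beside them. The 6 fibroblast markers together reached at most 1.98 CPM in any library, with Col1a2, Col3a1, Lum and Pdgfrb at the floor in both lines. Of the leukocyte markers, Ptprc, Cd3e, Adgre1 and Itgam were at the floor in both lines, and Csf1r gave nearly all of the 12.3 to 16.2 CPM in J110 and 13.5 to 15.9 CPM in SSM3. Csf1r shares exon sequence with Hmgxb3 on the opposite strand, which had nearly the same counts in every library, so these reads may belong to either gene. The 5 endothelial markers summed to 158 to 181 CPM in J110 and 0 to 0.425 CPM in SSM3, nearly all from Cdh5, with Tie1 and Tek at the floor in both. Erythroid markers summed to at most 0.209 CPM in J110 and to 1.39 to 2.0 CPM in SSM3. Cdh5 and the epithelial markers, which were split as given above, differed between the lines, and the part of Cdh5 in the results was not tested either. In such bulk samples fewer cells of a type and less RNA per cell cannot be told apart.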

How the data were processed

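RNA of 3 J110 and 3 SSM3 samples was sequenced with a 3′ protocol, and the authors deposited raw counts per Ensembl gene, with 5209740 to 5416305 counts per library in J110 and 4200785 to 4792941 in SSM3. The submitters' processing notes name bcl2fastq 2.17.1.14, cutadapt 2.1, HISAT2 2.0.4, featureCounts of Subread 2.0.0, R 4.1.0, limma 3.48.3, edgeR 3.34.0 and the mm10 build. The strand, multiple-overlap and multiple-match settings of the counting are not given in the sources used here. Csf1r had 64, 82 and 69 counts in J110 and 61, 73 and 68 in SSM3. Hmgxb3, on the opposite strand, had 64, 82 and 72 in J110 and 61, 73 and 68 in SSM3. Reads of shared exons may therefore have been counted for genes of both strands. Symbols and exons came from GENCODE M21, which held 52403 of the 52636 IDs (99.6%), with Car9 and Ero1l found through RefSeq synonyms of Ca9 and Ero1a.

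From the deposited counts, genes were filtered with filterByExpr, scaled by TMM and tested with edgeR 4.0.16 (glmQLFit and glmQLFTest in R 4.3.3, SSM3 against J110, Benjamini-Hochberg adjustment over all genes tested, threshold 0.05). The standard error was the absolute log2 fold change divided by the square root of F. The script was tested on simulated data. Replicate libraries differed by more than sampling noise, so none was a copy of another. The study calls the replicates biological, and whether they were separate cultures is not described further, so p-values measure the spread between these samples, which had a biological coefficient of variation of 8.30%. Pair ratios used a prior count of 2 and an exact permutation test in scipy 1.17.1. Exon sharing was found with bedtools 2.31.1, and near-identical 3′ ends (500 bases, at least 97% identity over at least 75 bases) with blastn 2.17.0. Every member was named. Of each list of other pathway genes, the called gene with the largest change in each direction was named among genes with a mean of at least 10 CPM in 1 line. Of the genes so named, 1 is not reported here. Alternatives were other scalings, filters and tests (DESeq2 1.42.0, limma-voom in limma 3.58.1), libraries left out, a replicate block and genes sharing exons left out. The members and lists were chosen with earlier results of these data known.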

Additional observations from a re-analysis of the deposited data

How the results depend on the processing

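Of the 31 genes called, 29 kept their direction and their side of the threshold in each of the 17 alternative settings in which they were tested (other scalings, filters and tests, a ribosomal RNA locus removed, libraries left out, near-identical genes added), where Slc16a3 was not tested with at least 10 counts in every library, and no gene changed direction. Hif1a and Egln1 were the others, and Hif1a had an adjusted p of 0.117 without both J110 replicate 3 and SSM3 replicate 2, in which genes of the opposite line had widespread low counts. Adding near-identical genes was chosen after seeing the data. The median log2 fold change of the listed genes was -0.78 with library size only, without TMM, -1.16 with no filter beyond 1 count in any library and -1.28 without genes that share exons with another counted gene. That last setting left 19 of the 32 genes, with 7 higher and 10 at least 2-fold lower in SSM3, and of the other pathway genes 17 higher and 15 lower, because fewer genes were tested. Leaving out each library in turn gave 12 to 14 listed genes higher, 18 to 18 lower, 2 to 3 at least 2-fold higher and 14 to 16 at least 2-fold lower, a median of -1.06 to -0.88, and 22 to 25 other pathway genes higher and 21 to 24 lower. The ratio differences of the pairs with a rare gene turned direction. Eno1 to Eno2, at -0.28, was 0.52 with a prior count of 0.5 and 0.14 without SSM3 replicate 3 (-0.86 to 0.14 over libraries left out). Ldha to Ldhb, at -0.21, was 0.14 with a prior count of 0.5, 0.10 without J110 replicate 1 and 0.12 without SSM3 replicate 1 (-0.56 to 0.12). The cause was not tested. Replicate numbers did not pair the samples, since deviations of same-numbered libraries correlated at 0.012, 0.015 and 0.027. With the replicate number as a block, 13 listed genes were higher and 18 lower, 3 and 16 by at least 2-fold, the median was -0.96, and 26 other pathway genes were higher and 23 lower. Depth limits Slc2a3, Ca9, Eno2 and Ldhb, which were at or near the floor, and genes in small numbers of counts such as Ankrd37.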
